A study of Mus musculus with 5 samples.

Results

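The genes described here build the extracellular matrix: the collagens, the laminins and 9 further matrix proteins. Members were every array probe whose annotated name is a collagen chain or a laminin alpha, beta or gamma chain, older procollagen names included. To these were added probes for Fn1, Sparc, Nid1, Nid2, Hspg2, Fbn1, Fbn2, Tnc and Vcan. The rule itself reads names and no expression value. The rule found 111 probes for 55 genes, out of 28845 probes for 24884 genes and unnamed transcripts on the array. Of these 55 genes, 23 encode basement membrane components, 11 fibrillar collagens, 7 fibril-associated collagens, 8 other collagens and 6 other matrix glycoproteins. Versican (Vcan) and Lamb1 were found under older symbols, which 5 probes carry, and 2 probes of Col4a3bp, a lipid transfer protein gene with a similar name, were left out.

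Basement membranes are thin sheets on which epithelia, endothelia and muscle cells rest. They consist of separate networks of laminin trimers and of collagen IV, joined by nidogens and the proteoglycan perlecan. Fibrillar collagens instead form the banded fibres of loose connective tissue, together with fibronectin and fibrillin microfibrils. In the mouse embryo, laminin and collagen IV are deposited before gastrulation, and fibronectin is needed for mesoderm and heart formation.

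The populations were marker-positive cells isolated from mouse embryoid bodies, aggregates of differentiating embryonic stem cells. Early mesoderm positive for Brachyury (Bra) and cardiac mesoderm positive for Flk1 were taken at day 4.5. Cardiac progenitors, marked by Nkx2.5, were taken at day 7.5. Undifferentiated stem cells positive for Rex1 were taken at day 0. The labels do not name the sorting method, the parent line or the number of cultures. Population pairs were hybridised on 5 two-colour oligonucleotide arrays. Bra, Flk1 and Nkx2.5 cells were each set against Rex1 cells, and Nkx2.5 cells also against Bra cells and against Flk1 cells. Arrays are named below as one population over another, the Cy5-labelled one first and the Cy3-labelled one second. There was 1 array per pair, with no dye exchange, and the labels give no repeat of a pair. Gaps between arrays show the error of an array and not the spread between cultures, so the populations were compared without a test.

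A log2 ratio of 1 is a 2-fold difference between the populations of an array. Every comparison was read in a pair of ways. The first reading was the array of the pair itself, and the second was the sum or difference of the other arrays that close its triangle. Flk1 over Bra had no array of its own, so its first reading went through Rex1 and its second through Nkx2.5. Nkx2.5 over Rex1 closes 2 triangles, so its second reading averaged the way through Bra with the way through Flk1. A steady dye effect of a probe cancels in a difference of arrays but adds up in a sum. Both readings of Nkx2.5 over Rex1 carry it, since Nkx2.5 cells always had Cy5 and Rex1 cells Cy3. A probe passed the 2-fold rule where both readings reached 1 in size with the same sign and the brighter population was well above background, that is, above percentile 95 of the 96 negative control spots, on at least 1 array. The brightest probe stood for a gene. From the gaps between routes, over all genes, the error of a single array averaged 0.24 (log2). Comparisons share arrays and populations, so they are not independent of each other.

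Between 77.6% and 95.2% of probes were well above background per channel. Of the member probes, 80 of 111 were so in every channel and 3 in none. The sort markers were read first. The Rex1 gene Zfp42 passed the rule as lower in Bra, Flk1 and Nkx2.5 cells than in Rex1 cells, with first readings of -1.74, -1.76 and -1.68. T, the Brachyury gene, read 1.07 and 0.73 in Bra over Rex1. Kdr, the Flk1 gene, read 0.68 and 0.64 in Flk1 over Rex1, and Nkx2-5 read 0.53 and 0.91 in Nkx2.5 over Rex1. None of those 3 genes passed the rule in the named comparison, and each read above 0 in the population isolated by its product.

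Most matrix genes differed little between the populations. On the Bra over Rex1 array the 55 members had a median log2 ratio of -0.05, with 25 above 0. On the Flk1 over Rex1 array the median was 0.07, with 33 above 0. The arrays with Nkx2.5 cells read 0.11 against Rex1 with 37 above 0, 0.09 against Bra with 36 above 0, and 0.05 against Flk1 with 29 above 0. The median of all genes lay between 0.00 and 0.01 on each array. On the Nkx2.5 over Bra array 5 of 55 members (9.09%) reached a log2 ratio of 0.5, against 2.06% of all genes, and 1 member (1.82%) lay at -0.5 or lower, against 1.48% of all genes. By the second reading 14.5% of members and 8.09% of all genes reached 0.5 in that comparison. The gap was smaller on the other arrays. In Bra, Flk1 and Nkx2.5 over Rex1, 10.9%, 12.7% and 12.7% of members reached 0.5, beside 10.3%, 9.87% and 11.1% of all genes. In Nkx2.5 over Flk1 the shares were 7.27% and 5.77%. Bulk ratios cannot tell fewer cells of a type from less RNA per cell.

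**Figure D1:**
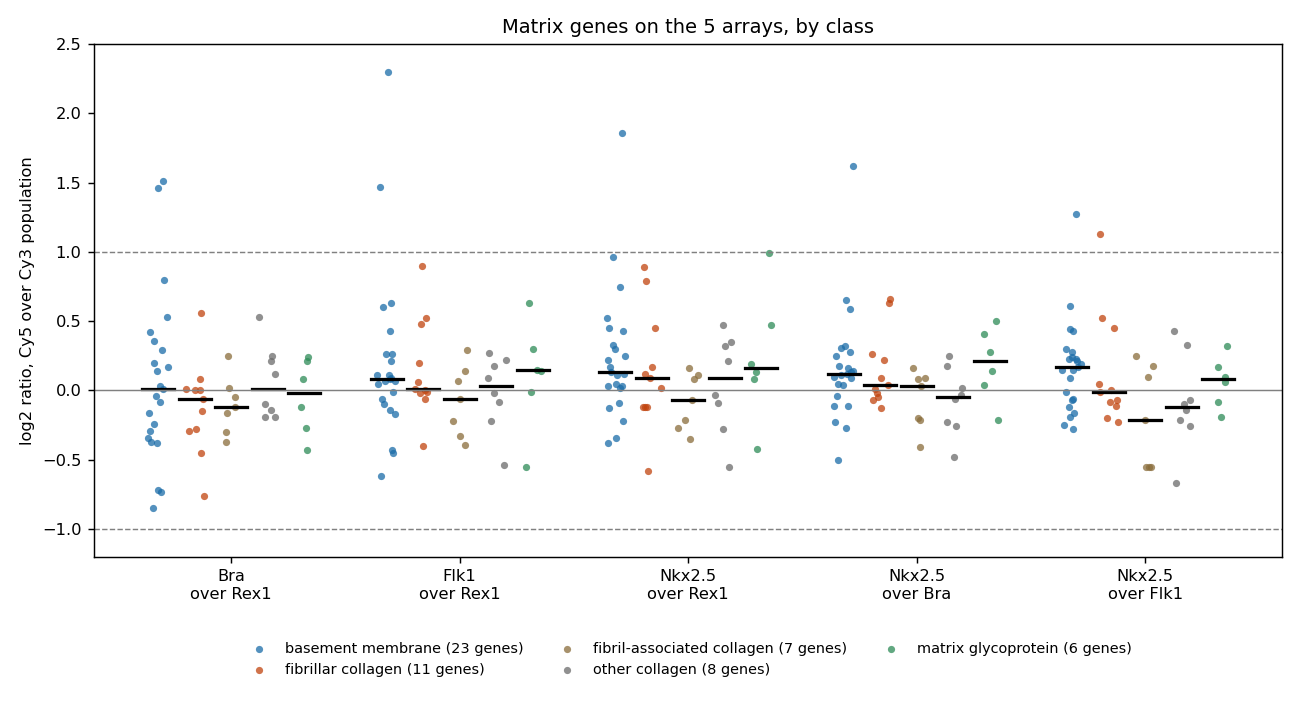
Log2 ratio of each of the 55 matrix genes (brightest probe) on the 5 arrays, the population named first over the second. Points are genes coloured by class, black bars are class medians and dashed lines mark 2-fold; most points lie within 0.5 of 0, and the highest point on 4 of the 5 arrays is a basement membrane gene between 1.27 and 2.30, Col4a1.

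One member gene passed the 2-fold rule. Col4a1 was higher in Nkx2.5 cells than in Rex1 cells, which makes 1 of 55 genes (1.82%), where 2.42% of all genes passed in that direction. It was also higher in Nkx2.5 than in Bra cells, again 1 of 55 against 0.277% of all genes. No member gene passed as higher in Bra over Rex1 (1.16% of all genes), Flk1 over Rex1 (0.687%), Nkx2.5 over Flk1 (0.301%) or Flk1 over Bra (0.0201%). No member gene passed as lower in any comparison. The shares of all genes that were lower were 0.221% in Bra over Rex1, 0.265% in Flk1 over Rex1, 0.703% in Nkx2.5 over Rex1, 0.0603% in Nkx2.5 over Bra, 0.0844% in Nkx2.5 over Flk1 and 0.00402% in Flk1 over Bra.

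Counting each of the 111 probes for itself, which was added after the values were seen, widened this to 6 probes of 5 genes. Probes for Col3a1, Col4a1, Fbn1 and Fn1 passed as higher in Nkx2.5 over Rex1, which is 4 of 111 (3.6%) beside 2.75% of all probes. In Nkx2.5 over Bra, 5 of 111 (4.5%) passed beside 0.319% of all probes: 2 for Col4a1 and 1 each for Col4a2, Col3a1 and Fbn1. In Nkx2.5 over Flk1 only a Col3a1 probe passed, 1 of 111 (0.901%) beside 0.34% of all probes. No member probe passed as higher in Bra over Rex1, Flk1 over Rex1 or Flk1 over Bra, where 1.27%, 0.749% and 0.0173% of all probes did. None passed as lower. The share of all probes that passed as lower was 0.253% in Bra over Rex1, 0.295% in Flk1 over Rex1 and 0.749% in Nkx2.5 over Rex1. It was 0.0728% in Nkx2.5 over Bra, 0.101% in Nkx2.5 over Flk1 and 0.00347% in Flk1 over Bra.

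Col4a1 and Col4a2, both with a probe that passed, are a head-to-head gene pair on mouse chromosome 8 in RefSeq (GRCm38.p6), with start sites 21 bases apart on opposite strands. Because each upstream window lies in the partner's transcribed side, only 30 bases around the single CCAAT box of each are shown, 5′ to 3′ on the gene's own strand, with the box or its reverse complement in capitals. The Col4a1 stretch is chr8:11312954-11312983 on the minus strand, and the Col4a2 stretch is chr8:11312761-11312790 on the plus strand.
Col4a1: tgcttgcccgggATTGGcgagccaaggggc
Col4a2: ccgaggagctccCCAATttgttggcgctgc
The box begins 145 bases before the Col4a1 start site and 32 bases before that of Col4a2. The 250 bases before each start site have a GC content of 74.4% for Col4a1 and 73.6% for Col4a2, where the median of all windows is 52.4%.

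For Col3a1 and Fbn1, the other genes with a passing probe and exactly 1 window in the RefSeq table, the 250 bases before the start site are given. They are chr1:45311288-45311537 on the plus strand and chr2:125506439-125506688 on the minus strand. Capitals mark a letter match to the core of the TATA box in Col3a1 and to the GC box in Fbn1. The window of Col4a2 also holds 2 GC box matches and that of Col4a1 holds 0.
Col3a1: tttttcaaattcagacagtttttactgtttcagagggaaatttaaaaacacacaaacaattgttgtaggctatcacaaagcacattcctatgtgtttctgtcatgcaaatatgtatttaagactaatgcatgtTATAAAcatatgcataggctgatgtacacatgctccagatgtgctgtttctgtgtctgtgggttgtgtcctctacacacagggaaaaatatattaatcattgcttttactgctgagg
Fbn1: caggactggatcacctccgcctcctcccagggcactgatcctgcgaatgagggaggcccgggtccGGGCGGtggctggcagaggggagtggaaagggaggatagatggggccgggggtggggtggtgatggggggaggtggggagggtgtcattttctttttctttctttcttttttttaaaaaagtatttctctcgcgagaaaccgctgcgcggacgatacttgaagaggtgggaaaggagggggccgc
Their GC content is 35.2% in Col3a1 and 59.2% in Fbn1. Both strands were searched for the TATA box core TATAAA, for the CCAAT box, for the GC box GGGCGG and for the AP-1 core TGANTCA. None of these matches overlap in the 4 windows. Of all 32851 windows of this length, 12.4% hold the TATA box core, 33.8% the CCAAT box, 32.7% the GC box and 6.75% the AP-1 core. The 44 windows of 39 member genes hold these 4 in 15.9%, 34.1%, 56.8% and 2.27%. Such letter matches describe the windows and are not binding sites.

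Collagen IV is the network-forming collagen of every basement membrane, and Col4a1 and Col4a2 encode the chains of its most widespread form. The brightest Col4a1 probe, M15832, read 0.80 in Bra over Rex1, 2.30 in Flk1 over Rex1 and 1.86 in Nkx2.5 over Rex1. On the remaining arrays it read 1.62 in Nkx2.5 over Bra and 1.27 in Nkx2.5 over Flk1. All 5 ratios were above 0, and every array with Nkx2.5 cells put them above their partner. Nkx2.5 cells had Cy5 on each of those arrays, so the sign on a single array cannot be told apart from a dye effect of the probe. A steady dye effect cancels in the second readings over Bra and over Flk1, 1.06 and -0.44, but is carried by both readings over Rex1. Its background-subtracted signals were 6470 in Nkx2.5 cells and 1702 in Rex1 cells on their shared array, and 11432 in Nkx2.5 cells and 5678 in Bra cells on theirs. The readings were 1.86 and 2.99 in Nkx2.5 over Rex1 and 1.62 and 1.06 in Nkx2.5 over Bra. In Nkx2.5 over Flk1 they were 1.27 and -0.44, and in Flk1 over Rex1 2.30 and 0.59, so the place of Flk1 cells was not settled. Without background subtraction the ratio was 0.32 in Nkx2.5 over Rex1 and 0.50 in Nkx2.5 over Bra, and the mean over the 4 Col4a1 probes was 0.51 and 0.62, so both calls ended. In the authors' deposited log2 table the Nkx2.5 over Bra readings were 1.11 and 0.97.

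The other Col4a1 probes did not all follow it. M14042 read 0.86 and 0.87 in Nkx2.5 over Rex1, and in Nkx2.5 over Bra it passed at the 2-fold line, with a second reading of 1.09. J04694 stayed between -0.09 and 0.14 on the 5 arrays, and J03758 between -0.61 and -0.06. Of Col4a2, probe BC013560 read 1.26 and 0.70 in Nkx2.5 over Rex1 and 1.04 and 1.62 in Nkx2.5 over Bra. The brightest Col4a2 probe, X04410, read 0.33 and 0.66 in Nkx2.5 over Rex1 and 0.59 and 0.30 in Nkx2.5 over Bra. These 2 Col4a2 probes thus gave 4 readings each above 0 against Rex1 and Bra, of different size. The others did not: J04695 read 0.35 and -0.32 in Nkx2.5 over Bra, and 1.35 and -0.19 in Flk1 over Rex1. X02896, well above background in Rex1 cells on 0 of 3 arrays, read -0.37 and 0.46 in Nkx2.5 over Rex1 and 0.20 and -0.28 in Nkx2.5 over Bra.

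The kidney and eye chains of collagen IV passed in no comparison. Col4a3, whose product is prominent in the glomerular basement membrane, read from 0.15 to 0.42 on the 5 arrays. Its partner Col4a4 ranged from -0.38 to 0.11 and Col4a5 from -0.72 to 0.31. Col4a5 was lowest in Bra over Rex1, where its second reading was -0.40. Col4a6 ranged from -0.37 to 0.13 by its brighter probe. Over all 13 collagen IV probes the median was -0.09 in Bra over Rex1, 0.14 in Flk1 over Rex1, 0.13 in Nkx2.5 over Rex1, 0.28 in Nkx2.5 over Bra and 0.24 in Nkx2.5 over Flk1.

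**Figure D2:**
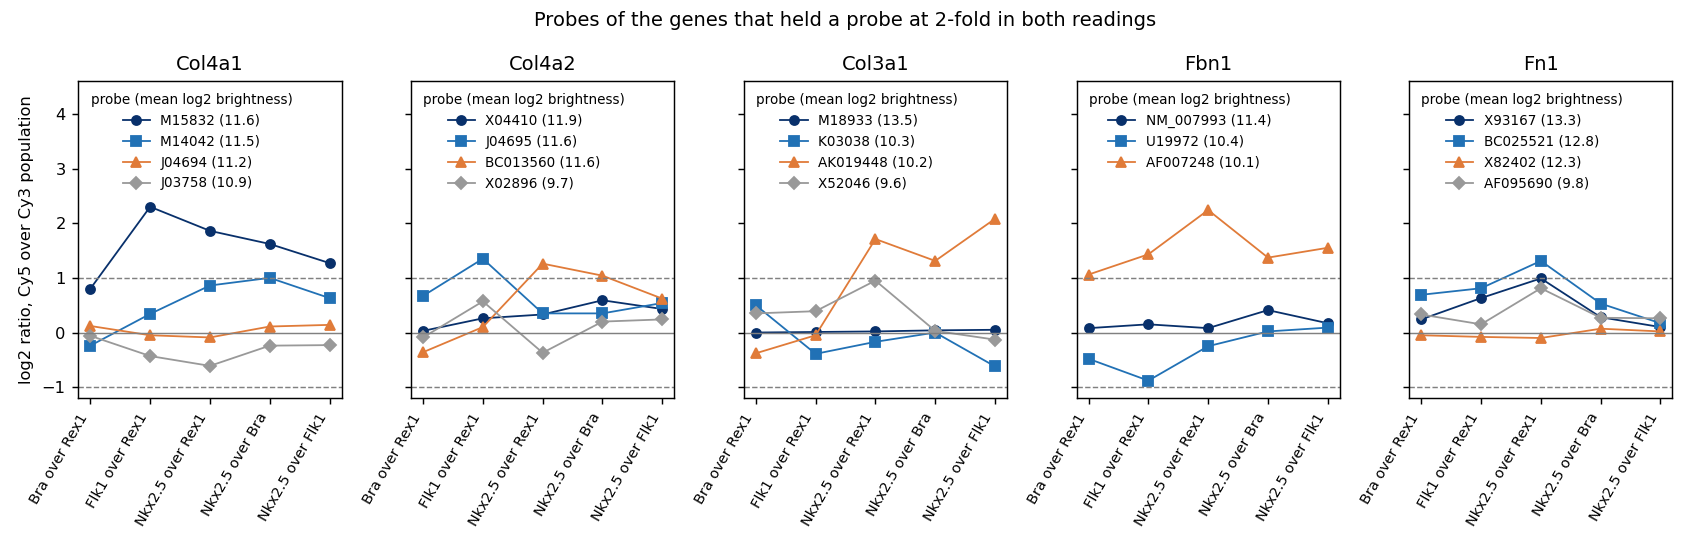
Log2 ratio on the 5 arrays for every probe of the 5 genes with a probe that passed the 2-fold rule. Each line joins the values of 1 probe, whose mean log2 brightness is in brackets, and dashed lines mark 2-fold; in Col3a1 and Fbn1 a dim probe (10.2 and 10.1) lies far above a brighter one (13.5 and 11.4), while in Fn1 the pair of brightest probes run together.

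Laminins are cross-shaped trimers of an alpha, a beta and a gamma chain that start basement membrane assembly on the cell surface. Lamb1 encodes the beta chain of the laminins of the early embryo. Its brightest probe, AK013952, read 0.53 in Bra over Rex1, 0.63 in Flk1 over Rex1 and 0.75 in Nkx2.5 over Rex1. It read 0.14 in Nkx2.5 over Bra and 0.21 in Nkx2.5 over Flk1. By this probe Lamb1 was above the Rex1 level in all 3 differentiated populations, by more than the error of 1 array, and did not reach 2-fold. The second readings against Rex1 were 0.61, 0.55 and 0.75 in the same order. The dimmer Lamb1 probe, M15525, read 0.44, 0.22 and 0.32 on those arrays, with second readings of 0.07, -0.31 and 0.77, so the probes differed for Flk1 cells.

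The common laminin partners of Lamb1 passed in no comparison. Lamc1, the gamma chain found in most laminins, read 0.29, 0.43 and 0.12 in Bra, Flk1 and Nkx2.5 over Rex1 by its brightest probe. Its dimmest probe read -0.79, -0.56 and -0.16 on the same arrays, so Lamc1 had no settled direction. Lama1, the alpha chain of the first embryonic laminin, stayed between -0.04 and 0.17 on the 5 arrays by its brightest probe. That probe's signal was 8769 in Nkx2.5 cells and 6650 in Rex1 cells, so its flat ratio was not one of a dim probe. The dimmer Lama1 probe, X07737, read -0.44 and 0.44 in Bra over Rex1 and 0.54 and -0.23 in Nkx2.5 over Rex1. Lama5, the alpha chain that takes over in later epithelia, stayed between 0.01 and 0.30 by its brightest probe. Its other probes ranged wider: U37501 read 0.55 and -0.45 in Bra over Rex1, and AJ006993 read 0.59 and -0.05 in Flk1 over Rex1. Lama4, the vascular and muscle alpha chain, stayed between -0.13 and 0.04 by its brightest probe, and its second probe, Y09827, between 0.15 and 0.50. A dimmer one, D89813, read 0.70 and 0.75 in Nkx2.5 over Flk1 and 0.46 and 0.70 in Nkx2.5 over Bra, so the Lama4 probes disagreed.

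Among the remaining chains, Lama2, the laminin alpha chain of muscle, had the widest ratios. Probe BC025503 read 1.46 in Bra over Rex1, 1.47 in Flk1 over Rex1 and 0.96 in Nkx2.5 over Rex1. The second readings were 0.71, 0.34 and 1.90, so all of them were above 0 but the rule was not met. Rex1 cells were above background on 2 of their 3 arrays and Flk1 cells on 1 of 2, and without background subtraction the 3 ratios were 0.02, -0.02 and -0.04. Lamb3, a laminin beta chain of skin, read -0.73 and -0.39 in Bra over Rex1, and Lamb2 read -0.38 and -0.20 in Flk1 over Bra.

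The proteins that link and extend these networks passed in no comparison. Nid1, the nidogen that bridges laminin and collagen IV, stayed between 0.07 and 0.23 by its brightest probe. Nid2 read 0.25 in Nkx2.5 over Rex1 and -0.43 in Flk1 over Rex1. Its Flk1 over Bra readings were -0.63 and -0.13. Hspg2, which encodes perlecan, read -0.50 and 0.46 in Nkx2.5 over Bra and 0.17 and -0.60 in Nkx2.5 over Rex1. Its dimmer probe, J04054, read 0.75 and 0.64 in Bra over Rex1 and 0.84 and 0.32 in Flk1 over Rex1, so Hspg2 had no settled direction. Col18a1, the source of endostatin, read 0.65 and 1.37 in Nkx2.5 over Bra, 0.68 and 0.42 in Flk1 over Bra, and -0.85 and -0.13 in Bra over Rex1. The Bra population thus read low by that probe, D17546, but -0.13 lay within the error of 1 array. The readings -0.85, 1.37 and 0.68 all use the Bra over Rex1 array. In Bra over Rex1 the second Col18a1 probe, U19600, read 0.68 and -0.06, and the third, NM_009929, 0.18 and -0.49. Col18a1 therefore had no settled direction there. Col7a1, the anchoring fibril collagen of skin, read 1.51 in Bra over Rex1, with a second reading of 0.47.

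Fibrillar collagens are the main protein of tendon, skin and the cardiac interstitium. Col1a1, a chain of collagen I, stayed between -0.06 and 0.17 on the 5 arrays by its brightest probe, with signals of 12462 in Nkx2.5 cells and 9115 in Rex1 cells. The dimmer Col1a1 probes differed from it. S67530 read 0.70 and 0.84 in Nkx2.5 over Flk1 and 0.72 and 0.54 in Nkx2.5 over Rex1. U03419 read 0.47 and 0.85 in Nkx2.5 over Flk1. BC003198 read 0.61 and 0.04 there but -0.20 and -0.16 in Nkx2.5 over Bra. The partner chain Col1a2 was well above background only in Nkx2.5 cells, on 3 of 3 arrays, and on 0 arrays of Rex1, Bra or Flk1 cells. Col1a2 read 0.63 and 0.37 in Nkx2.5 over Bra, 0.52 and 0.08 in Nkx2.5 over Flk1, and 0.09 and 0.44 in Nkx2.5 over Rex1. Neither chain passed the rule. The Col1a2 readings were above 0 in every Nkx2.5 comparison, each against a population not above background.

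Col3a1, the collagen of distensible tissue and of embryonic mesenchyme, showed a wide split between probes. Probe AK019448 read -0.38 in Bra over Rex1 and -0.05 in Flk1 over Rex1. It read 1.71 in Nkx2.5 over Rex1, 1.31 in Nkx2.5 over Bra and 2.08 in Nkx2.5 over Flk1. Only the arrays with Nkx2.5 cells were above 0. The second readings of those 3 comparisons were 1.48, 2.08 and 1.76, so it passed in all of them, and no other member probe did. Its signals were 6627 in Nkx2.5 cells and 1731 in Flk1 cells on their array, and 3164 in Nkx2.5 cells and 976 in Rex1 cells on theirs. It was well above background in Nkx2.5 cells on 3 of 3 arrays, in Bra cells on 1 of 2, in Flk1 cells on 1 of 2 and in Rex1 cells on 0 of 3. The brightest Col3a1 probe, M18933, read between 0.00 and 0.05 on the 5 arrays at signals of 13344 in Nkx2.5 cells and 10868 in Rex1 cells. K03038 ranged from -0.62 to 0.50 and X52046 from -0.13 to 0.95. Without background subtraction the ratios of AK019448 in the 3 Nkx2.5 comparisons were 0.37, 0.60 and 0.64, below 2-fold. Which probe reports the Col3a1 transcript was not tested.

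Collagen V seeds collagen I fibrils. Col5a1 read 0.66 and 1.24 in Nkx2.5 over Bra and 0.79 and 1.12 in Nkx2.5 over Rex1. In Flk1 over Bra its readings were 1.34 and -0.47 and in Nkx2.5 over Flk1 1.13 and -0.11, so the Flk1 arrays contradicted each other for this gene. Its partner Col5a2 read 0.56 and 0.96 in Bra over Rex1, 0.48 and 1.10 in Flk1 over Rex1 and 0.89 and 0.38 in Nkx2.5 over Rex1. The collagens of cartilage fibrils passed in no comparison. By their brightest probes Col2a1 lay between -0.15 and 0.22, Col11a1 between -0.40 and 0.01 and Col11a2 between -0.02 and 0.12. The Col11a2 probe U16789 read 0.72 and 0.75 in Nkx2.5 over Rex1. The Col11a1 probe X91014, above background in no channel, went down to -0.80. Col27a1 was lowest in Bra over Rex1, at -0.76 and -0.53.

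The fibril-associated collagens, which bind to fibres made of other collagens, reached 0.5 on no array. Their medians over 7 genes were -0.12 in Bra over Rex1, -0.06 in Flk1 over Rex1, -0.07 in Nkx2.5 over Rex1, 0.03 in Nkx2.5 over Bra and -0.21 in Nkx2.5 over Flk1. On the Nkx2.5 over Flk1 array, Col12a1, Col16a1 and Col9a2 each read -0.55. The second reading was -0.41 for Col16a1 and 0.04 for Col12a1. Of the other collagens, the beaded filament collagen VI had 8 probes of 3 genes. In Nkx2.5 over Flk1, where 50.6% of all probes were above 0, 7 of those 8 read below 0. The brightest Col6a1 probe read -0.67 and -0.22 there and -0.48 and -0.28 in Nkx2.5 over Bra, and Col6a3 read -0.26 and -0.39 in Nkx2.5 over Bra. The second Col6a1 probe, BC002194, read 0.73 in Nkx2.5 over Flk1. The Col6a2 probes read -0.21 and -0.03 there, with second readings of 0.57 and 0.30. Col25a1, a transmembrane collagen known from brain, read -0.55 and -0.61 in Nkx2.5 over Rex1. Col8a1, a collagen of vessel walls, read 0.33 and 0.55 in Nkx2.5 over Flk1.

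Fibronectin, encoded by Fn1, is the cell adhesion glycoprotein on which mesoderm migrates. Its brightest probe, X93167, read 0.24 in Bra over Rex1, 0.63 in Flk1 over Rex1 and 0.99 in Nkx2.5 over Rex1. The next brightest, BC025521, read 0.69, 0.81 and 1.31 on the same arrays. The second readings were 0.71, 0.89 and 0.62 for X93167 and 0.78, 1.15 and 1.10 for BC025521. Both probes were thus above the Rex1 level in all 3 differentiated populations in both readings. X93167 read 0.28 in Nkx2.5 over Bra and 0.10 in Nkx2.5 over Flk1, and BC025521 read 0.53 and 0.17 there. These first readings over Flk1 lay within the error of 1 array, and the second readings were 0.35 for X93167 and 0.51 for BC025521. All were above 0, but the first readings were too small to settle the order of Flk1 and Nkx2.5 cells. Signals of BC025521 were 9335 in Nkx2.5 cells and 3152 in Rex1 cells. BC025521 passed in Nkx2.5 over Rex1 with readings of 1.31 and 1.10, and X93167 did not, with 0.99 and 0.62. Without background subtraction BC025521 read 0.56. AF095690, a dim probe, read 0.81 on the Nkx2.5 over Rex1 array, and X82402 stayed between -0.10 and 0.07 on all 5.

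Sparc encodes osteonectin, a collagen-binding glycoprotein abundant in basement membranes and in bone, and its probe was the brightest of the 111. It read -0.12 in Bra over Rex1 and -0.01 in Flk1 over Rex1. It read 0.47 in Nkx2.5 over Rex1, 0.50 in Nkx2.5 over Bra and 0.32 in Nkx2.5 over Flk1. Only the arrays with Nkx2.5 cells were clearly above 0, and the second readings of those 3 comparisons were 0.35, 0.59 and 0.49. Signals were 25308 in Nkx2.5 cells and 19328 in Bra cells on their array. Unlike Fn1 and Lamb1, Sparc gave readings within 0.15 of 0 in Bra over Rex1 and Flk1 over Rex1, so these 3 genes had different profiles among the bright members. That difference was not tested.

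Fbn1 encodes the fibrillin of elastic microfibrils. Probe AF007248 read 1.06 in Bra over Rex1, 1.43 in Flk1 over Rex1 and 2.24 in Nkx2.5 over Rex1. It read 1.37 in Nkx2.5 over Bra and 1.55 in Nkx2.5 over Flk1. It passed in Nkx2.5 over Rex1 (second reading 2.70) and Nkx2.5 over Bra (second reading 1.18). It was not well above background in Rex1 cells on any of 3 arrays, so the ratios over Rex1 are set against a level at background. Its normalised level was 11.47 in Nkx2.5 cells and 8.74 in Rex1 cells on the log2 scale, and the lowest signal well above background puts it at least 2.76-fold higher in Nkx2.5 cells. This bound is an estimate open to dye bias, and without background subtraction the 5 ratios were -0.19, -0.08, 0.00, 0.32 and 0.15. The brightest Fbn1 probe, NM_007993, stayed between 0.08 and 0.41, and U19972 between -0.88 and 0.09.

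The remaining glycoproteins passed in no comparison. Fbn2, the fibrillin of the embryo, stayed between 0.06 and 0.30. Tnc, the anti-adhesive tenascin of remodelling tissue, read -0.43 in Bra over Rex1 and between -0.08 and 0.14 on the other arrays. Vcan, the large proteoglycan of the cardiac jelly and valve cushions, again gave opposite probes. Its brightest probe, D32040, read -0.42 and -0.61 in Nkx2.5 over Rex1, while NM_019389 read 0.76 and 1.01 there and 0.74 and 0.33 in Nkx2.5 over Bra. Over all 14 glycoprotein probes, 13 were above 0 in Nkx2.5 over Bra and 12 in Nkx2.5 over Flk1, where 50.4% and 50.6% of all probes were. By the second reading 9 and 8 of the 14 were above 0, where 48% and 47.8% of all probes were. Several of these probes share a gene, so they are not independent.

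**Figure D3:**
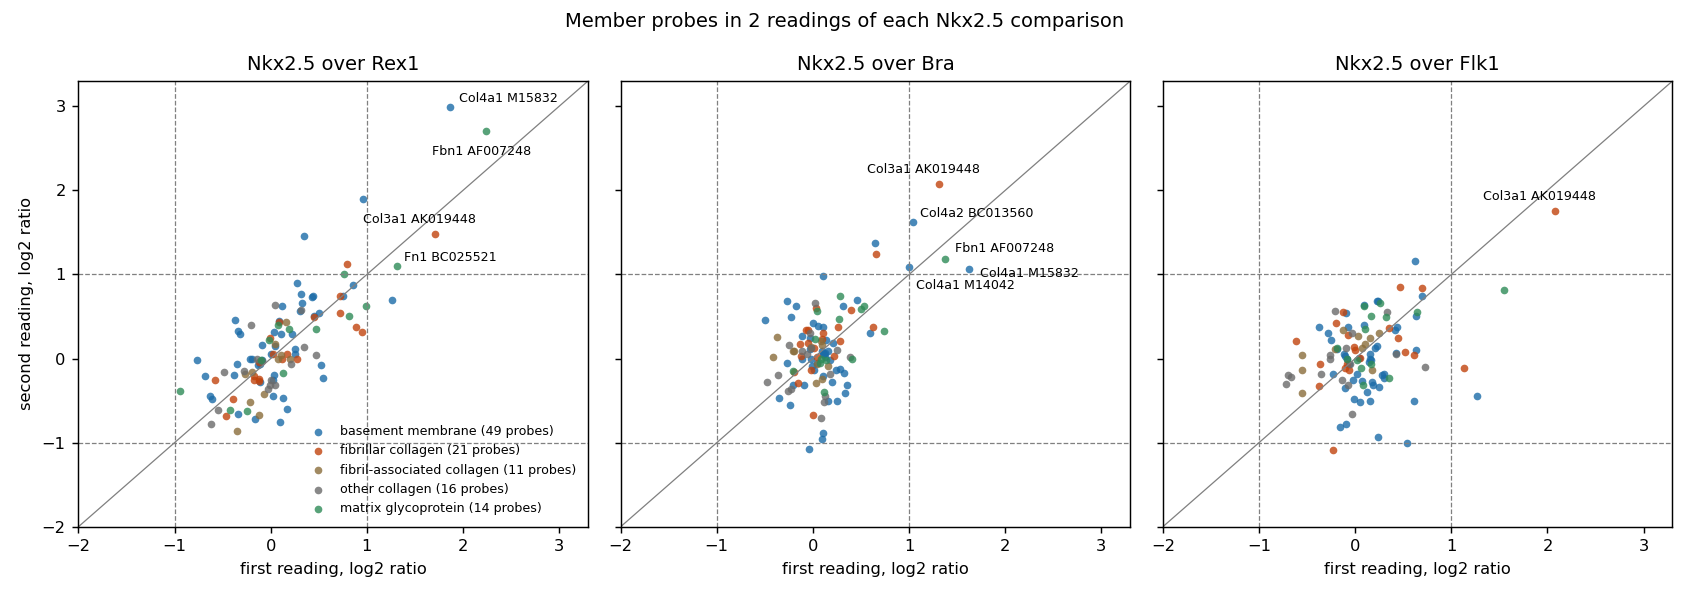
First against second reading of the log2 ratio for the 111 member probes in the 3 comparisons with Nkx2.5 cells. Points are probes coloured by class, the diagonal marks equal readings and dashed lines mark 2-fold; 4, 5 and 1 named probes lie beyond 2-fold in both readings in Nkx2.5 over Rex1, over Bra and over Flk1, all in the upper right corner.

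Probes of one gene often disagreed. For the 33 member genes with more than 1 probe, the median range between the probes' log2 ratios was 0.66 in Bra over Rex1, 0.60 in Flk1 over Rex1, 0.49 in Nkx2.5 over Rex1, 0.40 in Nkx2.5 over Bra and 0.37 in Nkx2.5 over Flk1. Over all 3096 genes with more than 1 probe the medians were 0.34, 0.33, 0.39, 0.19 and 0.26. A range widens with the number of probes, which averaged 2.7 per gene for these members and 2.28 over all such genes. Among genes with 2 probes, the 17 members had median ranges of 0.23, 0.27, 0.34, 0.17 and 0.27, close to the 0.30, 0.28, 0.34, 0.16 and 0.22 of all 2483. The widest ranges were 2.73 for Col4a1 in Flk1 over Rex1, 2.70 for Col3a1 in Nkx2.5 over Flk1 and 2.49 for Fbn1 in Nkx2.5 over Rex1. In Nkx2.5 over Rex1 the median ratio size was 0.18 over the 30 member probes with a mean log2 brightness of 12 or more. It was 0.30 over the other 81, and the corresponding values over all probes were 0.15 and 0.28. Over member probes the Spearman correlation of ratio size with brightness was -0.18 in Nkx2.5 over Rex1. It was 0.07 in Nkx2.5 over Bra, where the medians were 0.12 and 0.20. The part of brightness in any gene's ratio was not tested.

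Basement membrane and fibrillar genes had nearly equal medians. On the Bra over Rex1 array the medians were 0.01 over 23 basement membrane genes and -0.06 over 11 fibrillar genes. They were 0.08 and 0.01 in Flk1 over Rex1, 0.13 and 0.09 in Nkx2.5 over Rex1, 0.12 and 0.04 in Nkx2.5 over Bra, and 0.17 and -0.01 in Nkx2.5 over Flk1. The basement membrane median was the higher one on all 5 arrays, by 0.04 to 0.18, but the second readings put the difference at 0.00, 0.02, 0.10, -0.09 and -0.04 in the same comparisons. In Flk1 over Bra the readings of the difference were 0.01 and -0.03. The spread of the difference between its readings was 0.0855 on the log2 scale, and the difference changed sign between them in 3 of 6 comparisons. This spread is not the full error, since the comparisons share arrays and it leaves out the spread among genes. On the Nkx2.5 over Flk1 array the standard deviation among genes was 0.333 in the basement membrane class and 0.411 in the fibrillar class. The genes above 0 in Nkx2.5 over Rex1 numbered 18 of 23 in the basement membrane class and 7 of 11 in the fibrillar class, where 51.2% of all genes were above 0. By the second reading they numbered 14 of 23 and 6 of 11, where 50.6% of all genes were above 0.

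**Figure D4:**
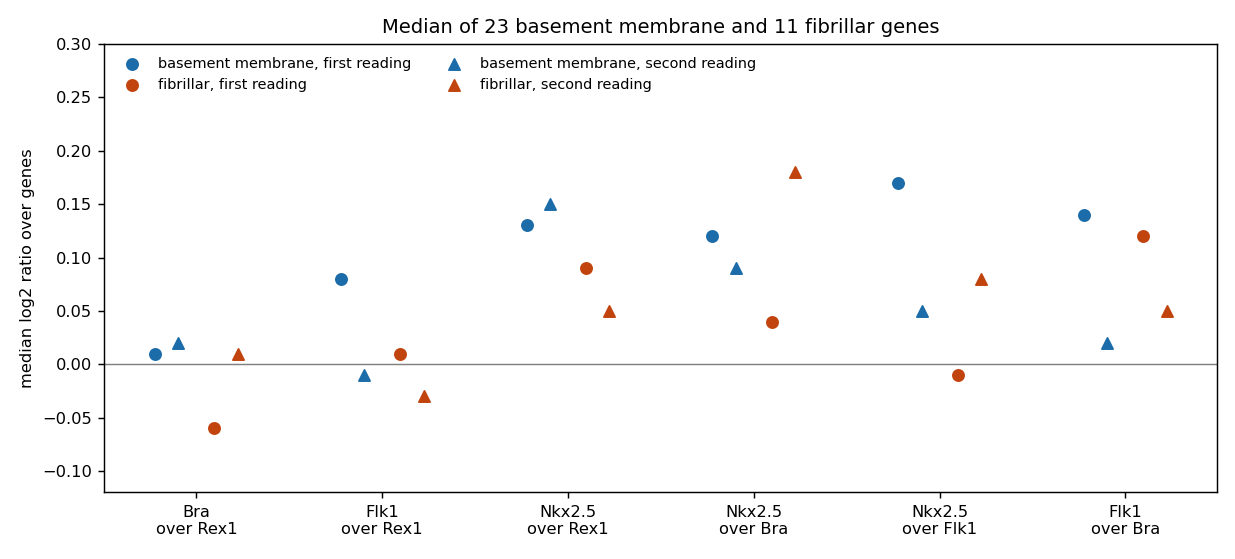
Median log2 ratio over 23 basement membrane genes and 11 fibrillar genes in each of 6 comparisons. Circles are first readings and triangles second readings; the basement membrane circle is above the fibrillar one in every comparison, while the triangles change order in Nkx2.5 over Bra, Nkx2.5 over Flk1 and Flk1 over Bra.

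The enzymes and chaperones that make collagen were read beside it, 21 of a list of 29 being on the array. For this list and those that follow, the shares of all genes that passed are the ones given for the member genes, at most 2.42% as higher and 0.703% as lower. P4ha1, a subunit of the prolyl hydroxylase that stabilises the triple helix, read 1.11 and 1.37 in Nkx2.5 over Rex1 and passed. Serpinh1, the collagen chaperone of the endoplasmic reticulum, read 1.11 and 1.16 and also passed there. Both were higher in Nkx2.5 cells than in Rex1 cells. Pcolce2, an enhancer of procollagen cleavage, passed as lower in Nkx2.5 over Rex1, at -1.09 and -1.53, and its relative Pcolce passed as lower in Bra over Rex1, at -1.15 and -1.07. In the other 4 comparisons 0 of 21 passed in either direction. The list's median was -0.02 and 0.07 in Nkx2.5 over Rex1, where that of all genes was 0.01 in both readings.

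Of the matrix receptors, 21 of 25 were on the array. Itga3, an integrin alpha chain that binds laminin, passed as higher in Bra over Rex1 at 2.34 and 1.65. It also passed as higher in Flk1 over Rex1 at 1.40 and 1.17 and in Nkx2.5 over Rex1 at 1.88 and 2.33. Other integrin alpha chains read below 0 in Nkx2.5 over Rex1, such as Itga6 at -0.28 and -0.27 and Itga7 at -0.42 and -0.40. Itgav, the alpha chain of fibronectin and vitronectin receptors, passed as higher in Bra over Rex1 at 1.68 and 1.09 and in Nkx2.5 over Rex1 at 1.59 and 2.61. Its partner Itgb5 passed in Nkx2.5 over Rex1 at 1.33 and 1.19. Thus 2, 1 and 3 receptors passed as higher in Bra, Flk1 and Nkx2.5 cells against Rex1 cells. Of all genes, 1.16%, 0.687% and 2.42% passed as higher in those 3 comparisons. No receptor passed as lower, and 0 of 21 passed in the comparisons without Rex1. In Nkx2.5 over Rex1, Itga4 read -1.57 and -0.96 and Sdc3 -1.09 and -0.65. The list's median there was -0.09 and 0.05, where that of all genes was 0.01 in both readings. Rex1 cells were above background for Itga3 on 1 of 3 arrays and for Itgav on 0 of 3, and Bra cells for Itgav on 1 of 2, so these ratios are set against levels at or near background. Among 22 of 24 matrix proteases and inhibitors on the array, Mmp2, a gelatinase that cleaves collagen IV, passed as higher in Flk1 over Rex1 at 1.93 and 1.72. Plat, a plasminogen activator, passed as higher in Nkx2.5 over Rex1 at 1.47 and 1.56. None passed as lower, and 0 of 22 passed in the remaining 4 comparisons.

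Cell types known to make much matrix were followed by their markers. Of 14 parietal endoderm markers, Sox17 and Fst passed as higher in Bra over Rex1, Fst in Flk1 over Rex1, Plat and Sox17 in Nkx2.5 over Rex1 and Krt19 in Nkx2.5 over Flk1, while Fst passed as lower in Nkx2.5 over Bra and over Flk1. Of 13 visceral endoderm markers, 4 passed as higher in Nkx2.5 over Rex1 (Afp, Ttr, Apoc2 and Cubn), 3 in Nkx2.5 over Bra and 2 in Nkx2.5 over Flk1. Ttr, which encodes transthyretin, read 1.98 and 1.83 in Nkx2.5 over Rex1. Rex1 cells were above background for Afp and Cubn on 0 of 3 arrays. Other visceral endoderm markers read below 0 in Nkx2.5 over Rex1: Ihh at -0.83 and -0.65, Trf at -0.75 and -0.50 and Apob, at background in Rex1 cells, at -0.50 and -0.38. Some visceral endoderm markers thus passed as higher in Nkx2.5 cells in the comparisons in which Col4a1 passed. So did cardiomyocyte markers and the smooth muscle marker Tagln, given below. No parietal marker passed as higher in Nkx2.5 over Bra, where Krt19 read 0.90 and 1.46 and Cited1 1.10 and 0.48. The part of any of these cell types in the Col4a1 result was not tested.

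Of 16 fibroblast and mesenchyme markers 0 passed in any of the 6 comparisons, and their median was 0.20 and 0.22 in Nkx2.5 over Rex1. Cardiomyocyte markers passed as higher for 6 of 15 in Nkx2.5 over Rex1, 4 in Nkx2.5 over Bra and 8 in Nkx2.5 over Flk1, with Tnnt2, a sarcomere protein, at 2.46 and 2.51 against Rex1. Of 7 smooth muscle markers, Tagln passed in Nkx2.5 over Rex1, Tagln and Acta2 in Nkx2.5 over Bra and Acta2 in Nkx2.5 over Flk1. Of 13 endothelial markers, Sox18 and Egfl7 passed as higher in Flk1 over Rex1, Sox18 in Flk1 over Bra and Cldn5 in Nkx2.5 over Flk1, where Sox18 was lower. Other markers of these lists read below 0 in Nkx2.5 over Rex1. The cardiomyocyte marker Myh6 read -0.22 and -0.29, and the endothelial marker Eng -0.73 and -0.05. Of the smooth muscle markers, Mylk read -1.10 and -0.16 and Myh11 -0.09 and -0.10. In Flk1 over Rex1, Cldn5 read -0.32 and -0.37. No cardiomyocyte, smooth muscle or endothelial marker passed in Bra over Rex1, and their part in the matrix ratios was not tested.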

How the data were processed

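Total RNA of 4 sorted mouse populations was compared on 5 two-colour arrays. Per the labels' protocols the RNA was purified on columns and amplified with amino allyl nucleotides before coupling to a CyDye. For scanner software, gene models and genome build, nothing is given in the sources used. The deposited files hold, per the file headers, a median intensity and a background per channel and a ratio of the channel intensities. Tested on the files, the background had already been subtracted from the deposited intensity. The deposited series table holds log2 values, which were used as an alternative; its column medians were -0.0833, -0.0584, -0.0558, -0.00762 and -0.0717 for Bra, Flk1 and Nkx2.5 against Rex1 and for Nkx2.5 against Bra and Flk1, over the 28333 probes used here.

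Rebuilt foreground intensities went through normexp background correction (offset 50) and a loess fit per array that gave control spots no weight. This used limma 3.58.1 (R 4.3.3). Levels came from channels scaled by Aquantile. Tables were made in Python 3.11.15 with pandas 2.3.3. Spots marked as bad were kept, which touches 5 member probes. Probes were named through the RefSeq table of GRCm38.p6, by accession (8056), symbol (5226) or synonym (5081). For 558 the file's name was kept and 9924 stayed unnamed, of which 75 are described as matrix genes and lie outside the rule.

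The members, classes and marker lists were chosen with earlier results of these data known. Named genes were members that passed, the 3 highest and 3 lowest by smaller reading in each comparison, and a fixed set of well-known chains. One further gene chosen this way is not reported here. Marker lists add their passing genes. Probes and genes named beyond this, such as Col7a1, the kidney collagen IV chains and single probes, were chosen after their values were seen. The rule was tested on simulated data.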

Additional observations from a re-analysis of the deposited data

How the results depend on the processing

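No paired analysis was possible because each pair of populations was hybridised once, and no replicate could be left out. The single member that passed as higher in Nkx2.5 over Rex1, Col4a1, was lost (0 members) without background subtraction, with the mean over probes, and with only probes above background in every channel used, and 4 probes passed with every probe counted. In Nkx2.5 over Bra the 1 member was lost (0) without background subtraction, in the deposited table and with the mean over probes, and 5 probes passed with every probe counted, against 1 probe in Nkx2.5 over Flk1. By the first reading alone 2 members passed as higher in Bra over Rex1, 2 in Flk1 over Rex1, 2 in Nkx2.5 over Flk1 and 3 in Flk1 over Bra, with 1 lower in Flk1 over Bra. The cause was not tested, save that the first reading alone drops a condition. None of the 6 passing probes passed without background subtraction, and all did at an offset of 10 and with median centring. In the deposited table, which does not list the Fbn1 probe, Col3a1 probe AK019448 passed in the same 3 comparisons.

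The basement membrane median minus the fibrillar median, 0.07 in Bra over Rex1, was 0.16 with median centring and 0.18 in the deposited table. In Nkx2.5 over Rex1 it was 0.04, then 0.18 with median centring and -0.16 with the mean over probes. In Nkx2.5 over Flk1 it was 0.18, then 0.03 without background subtraction and -0.03 with the mean over probes. Of values of named genes, 69 of 216 moved by more than the array error without background subtraction, 52 with the mean over probes and 22 in the deposited table. Signal over background limits the dim probes most: the median net signal in Rex1 channels was 0.302 to 0.34 of the background.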
